A study of Mus musculus with 2 samples.

Results

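The genes described here are 10 imprinted growth regulators, H19, Igf2, Igf2r, Dlk1, Meg3, Peg3, Mest, Plagl1, Grb10 and Ndn, measured in thymic epithelial cells of fetal mice. They were chosen by symbol, and all 10 were found among the 25791 gene symbols of each library. RNA came from fetal thymus at 15 days post coitum, from cells sorted as positive for EpCAM and negative for CD45 and PDGFRa. The library titled humanCD3eTg came from C57BL/6J x CBA/J mice and is labelled as having thymocytes, and the library titled B6J came from C57BL/6 mice and is labelled as lacking them. Mice carrying the human CD3E transgene are generally known to lack T cells, and the summed level of 10 thymocyte genes was 3.87 FPKM in humanCD3eTg, against 138.1 FPKM in B6J. The treatment labels therefore go against what is known of the transgene and against the thymocyte transcripts, so both are named here by title, and "higher" or "lower" always describes the library titled humanCD3eTg set against B6J. Strain differs between the libraries together with the transgene, and their effects cannot be told apart. How many fetuses went into a library is not given in the sources used here. Each group has 1 library without a replicate, so differences between mice are unknown and no difference was tested.

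An imprinted gene is expressed mainly from the chromosome copy inherited from the father or mainly from the copy inherited from the mother, under the control of DNA methylation laid down in the germ line. In the mouse, many paternally expressed genes promote fetal growth and several maternally expressed genes restrain it, and many of these genes are highly expressed in fetal tissues and decline after birth. The best known example is Igf2, a paternally expressed growth factor, whose action is opposed by the maternally expressed Igf2r, a receptor that carries IGF2 to lysosomes. Here a gene is called paternally or maternally expressed from this general knowledge of the mouse. The deposited values add up both copies of a gene, so parental origin was not measured.

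Levels are given in FPKM, fragments per kilobase of transcript scaled to the total of mapped fragments, a unit per length that allows levels of different genes to be compared. Ratios are log2 ratios of humanCD3eTg over B6J computed on FPKM + 1, so that negative values mean a lower level in humanCD3eTg, and values of 1 or -1 mark a 2-fold difference. Over the 13493 genes that averaged 1 FPKM or more, the median log2 ratio was -0.05, and 4.47% were 2-fold lower and 2.10% were 2-fold higher in humanCD3eTg. Low values fell on steps that correspond to about 15.7 fragments per kilobase for each FPKM in humanCD3eTg and 19.9 in B6J. Counting intervals given below are exact binomial intervals for the ratio in FPKM over 1 kilobase of transcript. They cover counting error only, and not the variation between mice or sorts. All 10 genes passed the filter of 1 FPKM in both libraries.

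H19 had the highest level of the 10 genes and differed most between the libraries. It encodes a long noncoding RNA and lies beside Igf2, with which it shares enhancers. H19 stood at 182 FPKM in humanCD3eTg and at 371 FPKM in B6J, a log2 ratio of -1.02, which corresponds to 0.491 times the B6J level. It ranked 594th of all symbols in humanCD3eTg and 285th in B6J. The counting interval of its log2 ratio reached from -1.09 to -0.96 and so lay on both sides of the 2-fold limit. Relative to the median of all genes the log2 ratio was -0.98, just inside that limit.

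H19 is also the host of a microRNA, and the sequences of that microRNA are shown because a row for its hairpin precursor stands in the same tables and bears on the H19 value. They are from RefSeq on the build GRCm38.p6, at chr7:142577064-142577147 on the minus strand, written 5′ to 3′. In the hairpin the capitals mark both mature arms, and in the mature microRNAs they mark the seed, the stretch that pairs with target RNAs.
Mir675 hairpin: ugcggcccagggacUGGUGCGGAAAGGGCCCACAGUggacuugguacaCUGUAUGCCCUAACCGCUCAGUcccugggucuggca
mmu-miR-675-5p: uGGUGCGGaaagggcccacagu
mmu-miR-675-3p: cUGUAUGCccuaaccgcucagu

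The 84 bases of the hairpin were found unbroken at positions 997 to 1080 of the longest annotated H19 transcript, which has 2286 bases, and in 3 of 7 H19 transcripts of the GENCODE annotation. The Mir675 row stood at 2381 FPKM in humanCD3eTg and at 8134 FPKM in B6J, a log2 ratio of -1.77, and ranked 23rd and 5th of all symbols in these libraries. It had 13.1 times the FPKM of H19 in humanCD3eTg and 21.9 times in B6J. Because the hairpin lies inside an exon of H19 and the feature is shorter than ordinary library fragments, this row cannot be read as a level of the mature microRNA, and fragments of H19 may have been counted in either row. If each row is multiplied by its feature length and both are added, the log2 ratio is -1.31. How the authors' software set the effective length of so short a feature is not given in the sources used here, so this sum is approximate.

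Hairpins hosted by other genes of the set were checked in the same way. Those of Mir335, hosted by Mest, and of Mir483, hosted by Igf2, were in none of the 11 and 9 annotated transcripts of their hosts, and both rows were listed at 0 in both libraries. The hairpin of Mir770 was found in 1 of 11 transcripts of Meg3, and its row was listed at 0 in humanCD3eTg and at 69.6 FPKM in B6J. Fragments of Meg3 may therefore have been counted in either row in B6J, in a share that was not tested.

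**Figure D1:**
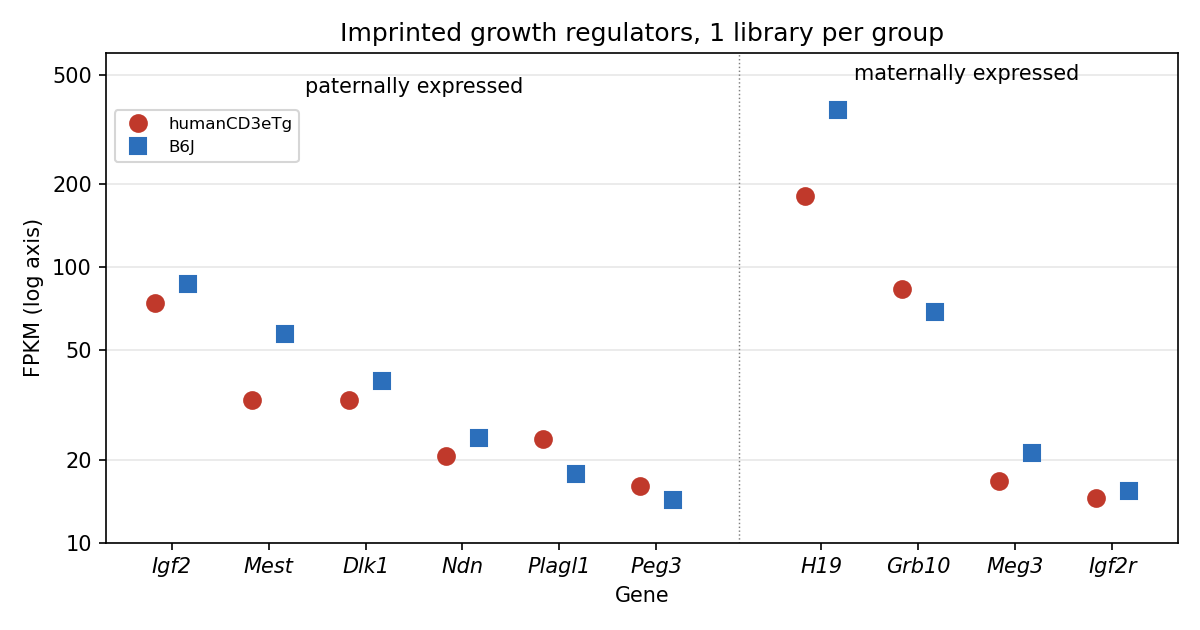
Level of each gene in FPKM on a log axis, with a red circle for the humanCD3eTg library and a blue square for the B6J library, and 1 library per group. H19 is the highest gene in both libraries, at 182 FPKM in humanCD3eTg and 371 FPKM in B6J, and the other genes lie between 14.3 and 87.2 FPKM.

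Among the paternally expressed genes, Igf2 was the highest. Igf2 stood at 74.0 FPKM in humanCD3eTg and at 87.2 FPKM in B6J, with a log2 ratio of -0.23 and a counting interval from -0.35 to -0.13. Its neighbour H19 thus had 2.46 times the FPKM of Igf2 in humanCD3eTg and 4.26 times in B6J. Both ratios leave out the Mir675 row, in which fragments of H19 may have been counted. The antisense row Igf2as was at 0.197 FPKM in humanCD3eTg and at 0.388 FPKM in B6J, far under Igf2. Whether the counting used strand is not given, so antisense fragments cannot be separated from those of Igf2.

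Mest was the paternally expressed gene that differed most. It encodes a protein of the alpha/beta hydrolase family and stood at 33.0 FPKM in humanCD3eTg, against 57.2 FPKM in B6J. Its log2 ratio was -0.77, or 0.577 times the B6J level, with a counting interval from -0.94 to -0.64. This is under the 2-fold limit and past a limit of 1.5-fold, which 10.9% of all genes used passed in the same direction and 5.95% in the other. Copg2, the neighbour of Mest whose end overlaps it in the RefSeq annotation, stood at 40.5 FPKM in humanCD3eTg and at 35.8 FPKM in B6J, with a log2 ratio of 0.17.

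Dlk1 and Ndn had ratios close to that of Igf2. Dlk1, a transmembrane protein with EGF repeats that is related to Notch ligands, stood at 32.8 FPKM in humanCD3eTg and at 38.6 FPKM in B6J, with a log2 ratio of -0.23. Ndn, which encodes necdin of the MAGE family, stood at 20.6 FPKM in humanCD3eTg and at 23.9 FPKM in B6J, with a log2 ratio of -0.21. The counting interval was -0.40 to -0.07 for Dlk1 and -0.43 to -0.01 for Ndn.

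Plagl1 and Peg3, which both encode zinc finger proteins, were the paternally expressed genes with a higher level in humanCD3eTg. Plagl1, a transcription factor reported to act on other imprinted genes in the mouse, stood at 23.8 FPKM in humanCD3eTg and at 17.7 FPKM in B6J, with a log2 ratio of 0.41 and a counting interval from 0.22 to 0.65. Peg3 stood at 16.1 FPKM in humanCD3eTg and at 14.3 FPKM in B6J, with a log2 ratio of 0.16. The Peg3 interval over 1 kilobase, -0.08 to 0.42, held 0, and over its longest annotated transcript of 8694 bases the interval was 0.09 to 0.26. Over all 6 paternally expressed genes, 4 were lower and 2 were higher in humanCD3eTg, none by 2-fold, and the median log2 ratio was -0.22, where the median of all genes used was -0.05.

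The maternally expressed genes besides H19 stayed within 1.5-fold. Grb10, an adaptor that dampens signalling by insulin and IGF receptors, stood at 83.5 FPKM in humanCD3eTg and at 68.5 FPKM in B6J, with a log2 ratio of 0.28 and a counting interval from 0.17 to 0.40. Meg3, a long noncoding RNA from the same domain as Dlk1, stood at 16.8 FPKM in humanCD3eTg and at 21.1 FPKM in B6J, with a log2 ratio of -0.31 and an interval from -0.56 to -0.10. Igf2r stood at 14.5 FPKM in humanCD3eTg and at 15.4 FPKM in B6J, with a log2 ratio of -0.09. The interval of Igf2r over 1 kilobase, from -0.34 to 0.16, held 0, and over its longest annotated transcript of 8887 bases it was -0.17 to -0.01.

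Of the 4 maternally expressed genes 3 were lower and 1 was higher in humanCD3eTg, which makes 7 of all 10 genes lower, where 55.4% of all genes used were lower. H19 was the only gene of the 10 to reach 2-fold. Their median log2 ratio was -0.20, close to the -0.22 of the paternally expressed genes. With 1 of 10 genes 2-fold lower and 0 of 10 2-fold higher, the share is read beside the 4.47% and 2.10% of all genes used, and with so few genes it does not stand apart from them. The FPKM of the 4 maternally expressed genes summed to 297 in humanCD3eTg and to 476 in B6J, and without H19 to 115 in humanCD3eTg and to 105 in B6J. The 6 paternally expressed genes summed to 200.3 FPKM in humanCD3eTg and to 239 FPKM in B6J.

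**Figure D2:**
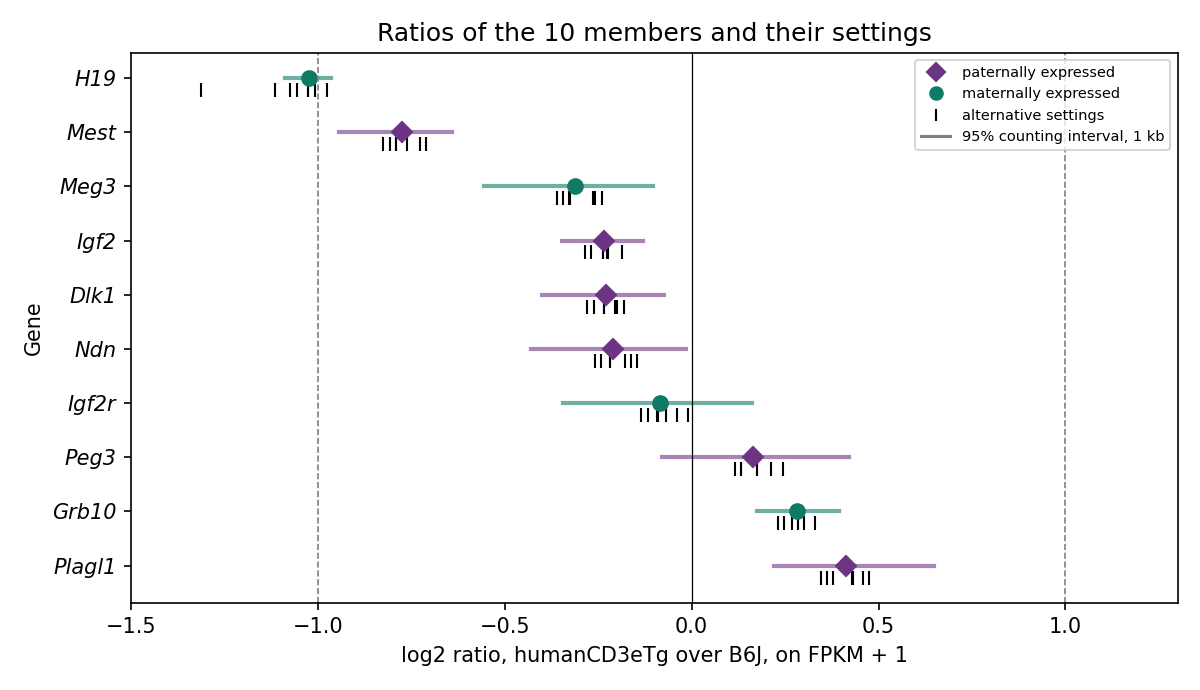
Log2 ratio of humanCD3eTg over B6J for each gene on FPKM + 1, with diamonds for paternally and circles for maternally expressed genes, lines for the 95% counting interval of the FPKM ratio over 1 kilobase, black ticks for alternative settings and dashed lines at 2-fold. H19 lies at the lower 2-fold limit with -1.02, Mest at -0.77, and the other genes between -0.31 and 0.41.

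The order of the levels was partly shared. In humanCD3eTg the order from the highest was H19, Grb10, Igf2, Mest, Dlk1, Plagl1, Ndn, Meg3, Peg3 and Igf2r. In B6J it was H19, Igf2, Grb10, Mest, Dlk1, Ndn, Meg3, Plagl1, Igf2r and Peg3. Within humanCD3eTg, the neighbours Mest and Dlk1, Plagl1 and Ndn, Meg3 and Peg3, and Peg3 and Igf2r lay within counting error of each other over 1 kilobase. Within B6J this held for Ndn and Meg3, Plagl1 and Igf2r, and Igf2r and Peg3. Grb10 and Igf2 changed places, with Grb10 at 1.13 times the FPKM of Igf2 in humanCD3eTg, and Igf2 at 1.27 times the FPKM of Grb10 in B6J.

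For each gene the closest genes by level were taken as those at the smallest Euclidean distance on log2(FPKM + 1) over the 2 libraries, which is a weak measure of likeness with so few points. The closest to Mest were Cdh4, at 33.1 FPKM in humanCD3eTg and 55.9 FPKM in B6J (distance 0.03), and Tspan14, at 34.4 and 57.2 FPKM in the same libraries (0.06). Those closest to H19 were further away, namely Tmem176b, at 182 FPKM in humanCD3eTg and 312 FPKM in B6J (0.25), and Cxcl10, at 179.8 and 449.7 FPKM (0.28). Each of the other 9 genes had 2 genes within a distance of 0.06.

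**Figure D3:**
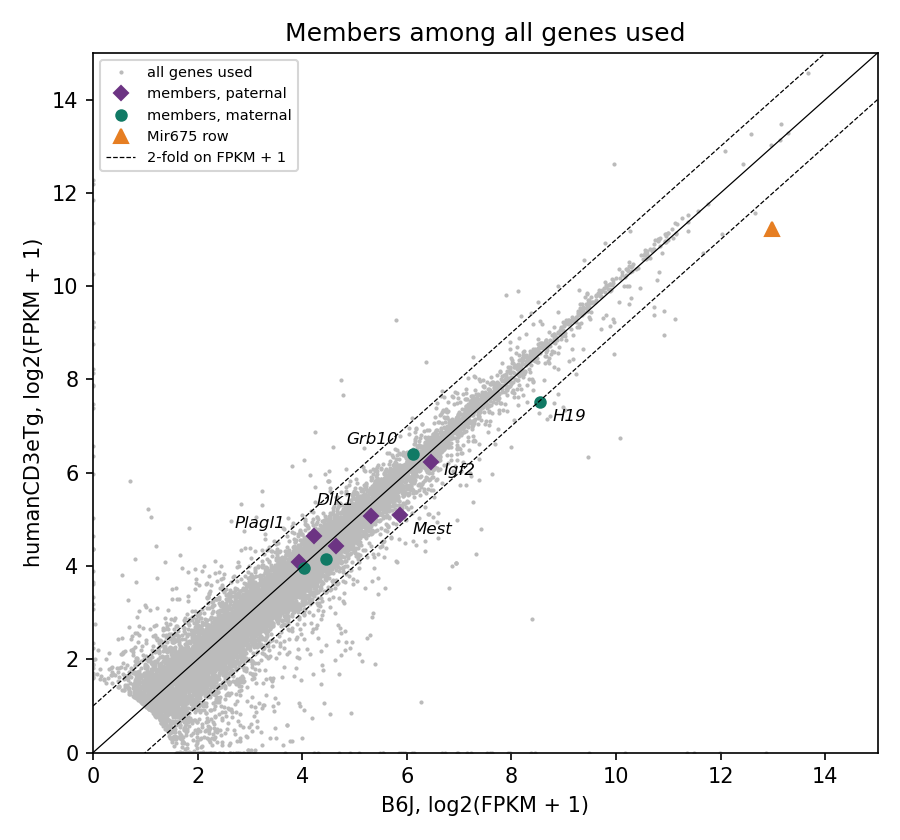
Level in humanCD3eTg against level in B6J, both as log2(FPKM + 1), for all 13493 genes used (grey), the paternally (diamonds) and maternally (circles) expressed genes and the Mir675 row (triangle), with dashed lines at 2-fold. H19 lies on the lower dashed line, Mir675 lies below it with a log2 ratio of -1.77, and the other 9 genes lie between the lines.

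Other imprinted genes were taken from lists of the mouse and had no common direction. Of 20 other paternally expressed genes, 10 reached a mean of 1 FPKM, of which 5 were lower and 5 were higher in humanCD3eTg, with a median log2 ratio of -0.04. Among them Slc38a4, an amino acid transporter, stood at 22.6 FPKM in humanCD3eTg and at 24.4 FPKM in B6J. Nnat, which encodes neuronatin, stood at 13.2 FPKM in humanCD3eTg and at 14.1 FPKM in B6J. Of the genes used, Airn alone passed 2-fold, at 3.53 FPKM in humanCD3eTg and 0.520 FPKM in B6J (log2 ratio 1.58). Airn passed the filter only through humanCD3eTg. Among low genes that the filter left out, FPKM differed by more than 2-fold in both directions, as for Dio3 (4.21 times the B6J level) and Sfmbt2 (0.367 times). Airn is the noncoding RNA transcribed antisense to Igf2r from the paternal copy, and it silences that copy in mouse tissues. Igf2r beside it had a log2 ratio of -0.09, and since the genes overlap on opposite strands their fragments cannot be separated without strand. Snurf, which shares a transcript with Snrpn, stood at 11.4 FPKM in humanCD3eTg and at 12.6 FPKM in B6J, whereas Snrpn was at 0.872 FPKM in humanCD3eTg and listed at 0 in B6J, so the value of Snrpn is uncertain.

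Of 17 other maternally expressed genes, 11 reached 1 FPKM, 6 of them lower and 5 higher in humanCD3eTg, with a median log2 ratio of -0.03. None differed by 2-fold on FPKM + 1. In FPKM itself the low genes Ascl2 and Asb4 were at 0.371 and 0.397 times the B6J level, and the highest ratio was 1.46 times, for Phlda2. Gnas, the stimulatory G protein subunit gene whose imprinting depends on transcript and tissue, was by far the highest, at 1079 FPKM in humanCD3eTg and 985 FPKM in B6J. Cdkn1c, an inhibitor of cyclin-dependent kinases and of fetal growth, stood at 42.5 FPKM in humanCD3eTg and at 44.2 FPKM in B6J, a log2 ratio of -0.06. Rian, a noncoding RNA of the Dlk1 and Meg3 domain, stood at 23.5 FPKM in humanCD3eTg and at 23.9 FPKM in B6J, a ratio of -0.03. Mirg, further along that domain, stood at 3.63 FPKM in humanCD3eTg and at 3.46 FPKM in B6J. The maternally expressed noncoding RNAs of this domain thus lay closer to equal levels than H19 did.

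The IGF pathway around Igf2 and Igf2r held several expressed genes. Of 17 signalling genes used from a list of 18, 11 were lower and 6 were higher in humanCD3eTg, with a median log2 ratio of -0.14. Igf1r, the receptor that transmits the IGF2 signal, stood at 13.1 FPKM in humanCD3eTg and at 19.4 FPKM in B6J (-0.53). Igfbp2, a secreted binding protein, stood at 83.3 FPKM in humanCD3eTg and at 123 FPKM in B6J (-0.55). Igfbp6, a binding protein that prefers IGF2, was the only gene of this list past 2-fold on FPKM + 1 (1.66). Its level was 8.84 FPKM in humanCD3eTg and 2.12 FPKM in B6J. Igf1, the other ligand, was low at 0.853 FPKM in humanCD3eTg and 1.84 FPKM in B6J, so Igf2 was the IGF ligand with the higher level in both libraries. Of the RNA-binding proteins known to bind Igf2 mRNA, Igf2bp2 was at 43.8 FPKM in humanCD3eTg and 32.8 FPKM in B6J, and Igf2bp3 at 12.5 FPKM in humanCD3eTg and 15.2 FPKM in B6J.

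Genes that maintain imprints had no common direction, with a median log2 ratio of 0.00 over 13 genes used, 6 lower and 7 higher in humanCD3eTg and none past 2-fold on FPKM + 1. Their ratios ran from -0.51 to 0.99. The lowest was that of Uhrf1, at 30.6 FPKM in humanCD3eTg and 43.9 FPKM in B6J. Trim28, a co-repressor, stood at 131 FPKM in humanCD3eTg and at 164 FPKM in B6J, and Dnmt1, the maintenance DNA methyltransferase, at 28.9 FPKM in humanCD3eTg and 33.2 FPKM in B6J. Ctcf, which binds the unmethylated control region between Igf2 and H19, stood at 19.6 FPKM in humanCD3eTg and at 22.5 FPKM in B6J. Zfp57, a zinc finger protein that recognises methylated imprinted regions, had the widest difference, at 18.1 FPKM in humanCD3eTg and 8.61 FPKM in B6J, a log2 ratio of 0.99 on FPKM + 1 and 2.10 times the B6J level in FPKM itself.

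RefSeq promoters, 250 bases before to 50 after a start, were found for 9 of the 10 genes, in 16 windows of which some overlap. The hexamer TGCCGC, the sequence ZFP57 recognises when its CpG is methylated, was searched on both strands because Zfp57 was the gene of the preceding list with the widest difference. It was in 6 of the 16 windows, from 5 genes, Igf2, Mest, Plagl1, Meg3 and Grb10, and in 11.6% of 32851 promoters of the same length. Overlapping Mest windows are counted separately among the 6. The hexamer holds a CpG, and promoters of like CpG content were not compared, so no excess is read from these shares. The octamer GGGGCCCC, which PLAGL1 recognises and which reads the same on both strands, was in 1 window, that of Peg3, and in 1.08% of all promoters. The promoters of Mest and Plagl1 are shown because these were the paternally expressed genes with the lowest and the highest ratio. Both are RefSeq sequence of GRCm38.p6 on the plus strand, Mest at chr6:30737800-30738099 and Plagl1 at chr10:13090582-13090881, with matches to TGCCGC or its reverse complement in capitals.
Mest: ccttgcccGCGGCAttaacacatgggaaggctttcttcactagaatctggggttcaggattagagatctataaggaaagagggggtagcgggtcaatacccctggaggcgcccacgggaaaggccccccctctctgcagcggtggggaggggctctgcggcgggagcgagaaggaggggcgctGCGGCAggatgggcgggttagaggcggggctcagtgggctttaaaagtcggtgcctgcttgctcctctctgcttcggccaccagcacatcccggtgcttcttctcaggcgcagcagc
Plagl1: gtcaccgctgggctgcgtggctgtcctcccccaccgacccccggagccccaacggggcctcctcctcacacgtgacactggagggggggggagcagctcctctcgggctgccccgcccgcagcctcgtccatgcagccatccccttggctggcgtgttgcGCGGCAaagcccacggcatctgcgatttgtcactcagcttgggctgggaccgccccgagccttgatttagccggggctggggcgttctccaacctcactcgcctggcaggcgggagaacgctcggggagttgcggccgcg

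The Mest window shown holds 2 matches and 17 CpG sites, and so does another Mest window that overlaps it, whereas the Mest window at chr6:30733256-30733555 holds 0 matches and 8 CpG sites. The Plagl1 window holds 1 match and 26 CpG sites, and the median promoter holds 7 CpG sites. A match is a description of the letters, and methylation and binding were not measured. The ratios of the 5 genes with a match, -0.23, -0.77, 0.41, -0.31 and 0.28 in the order given above, had both signs.

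The identity of the sorted cells bears on how these levels are read. All 12 thymic epithelial markers were expressed in both libraries, with Epcam at 231 FPKM in humanCD3eTg and 174 FPKM in B6J, and 8 were lower and 4 higher in humanCD3eTg, with a median log2 ratio of -0.10. Those past 2-fold were Krt5, a basal keratin gene, at 955 FPKM in humanCD3eTg and 280.2 FPKM in B6J (1.77), and Foxn1, the master transcription factor of these cells, at 43.7 FPKM in humanCD3eTg and 91.1 FPKM in B6J (-1.04). Several of the imprinted genes are known to be high in mesenchyme, endothelium and cells of the neural crest as well as in epithelium. Of 12 mesenchymal markers, 11 were used, 7 lower and 4 higher in humanCD3eTg, with a median of -0.18 that turned to 0.08 among genes averaging 5 FPKM or more, and their summed level was 268 FPKM in humanCD3eTg and 235 FPKM in B6J, none of them listed at 0. The defining Pdgfra, a negative marker of the sort, was at 0.348 FPKM in humanCD3eTg and 0.676 FPKM in B6J, while Col3a1, a fibrillar collagen gene, was at 77.2 FPKM in humanCD3eTg and 79.9 FPKM in B6J. The list was mixed, with 1 gene 2-fold lower, Tcf21 at 0.548 FPKM in humanCD3eTg and 2.70 FPKM in B6J (-1.26), and 0 genes 2-fold higher. Pdgfrb was lower, at 3.19 FPKM in humanCD3eTg and 6.05 FPKM in B6J (-0.75). Col1a1 was higher, at 66.0 FPKM in humanCD3eTg and 35.5 FPKM in B6J (0.88).

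Most markers of blood and vessel cells were lower in humanCD3eTg. The counts below are read beside the 4.47% of all genes used that were 2-fold lower. All 9 endothelial genes used were 2-fold lower (median -1.69), and the summed level of the 10 genes listed was 9.59 FPKM in humanCD3eTg and 55.1 FPKM in B6J. All 8 pan-haematopoietic genes were 2-fold lower (-2.24), with a sum of 6.70 FPKM in humanCD3eTg and 75.0 FPKM in B6J. All 8 thymocyte genes used were 2-fold lower (-3.42), and 3 of the 10 listed were at 0 in humanCD3eTg. Some of these genes passed the filter only through B6J, such as Cd3g, at 0 FPKM in humanCD3eTg and 45.5 FPKM in B6J. The endothelial and thymocyte counts lean on the filter, which left out Tek (-0.65), Rag2 (-0.98) and Cd2 (-0.59). With no filter the medians were -1.61 for endothelial, -3.21 for thymocyte and -2.24 for pan-haematopoietic genes. Erythroid genes were lower in 4 of 5 cases used (-0.72), none of them by 2-fold on FPKM + 1. The exception, Hbb-y, passed 2-fold in the other direction, at 8.51 FPKM in humanCD3eTg and 2.53 FPKM in B6J (1.43). The erythroid sum was 1585 FPKM in humanCD3eTg and 2611 FPKM in B6J, and Hbb-bh1 was listed at 0 in both libraries.

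Neural crest and pigment genes were higher in humanCD3eTg. All 10 genes used were higher, 9 of them 2-fold (median 2.39), where 2.10% of all genes used were 2-fold higher. Their sum was 174 FPKM in humanCD3eTg and 12.2 FPKM in B6J, and Mlana was listed at 0 in B6J. Sox10, Dct, Foxd3 and Mlana were under 1 FPKM in B6J and passed the filter only through humanCD3eTg, so the count leans on the filter. Proliferation genes were lower in 3 and higher in 5 of 8 cases (0.15). The part of any of these cells in the values of the imprinted genes was not tested. In such bulk libraries fewer cells of a type and less RNA per cell cannot be told apart.

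**Figure D4:**
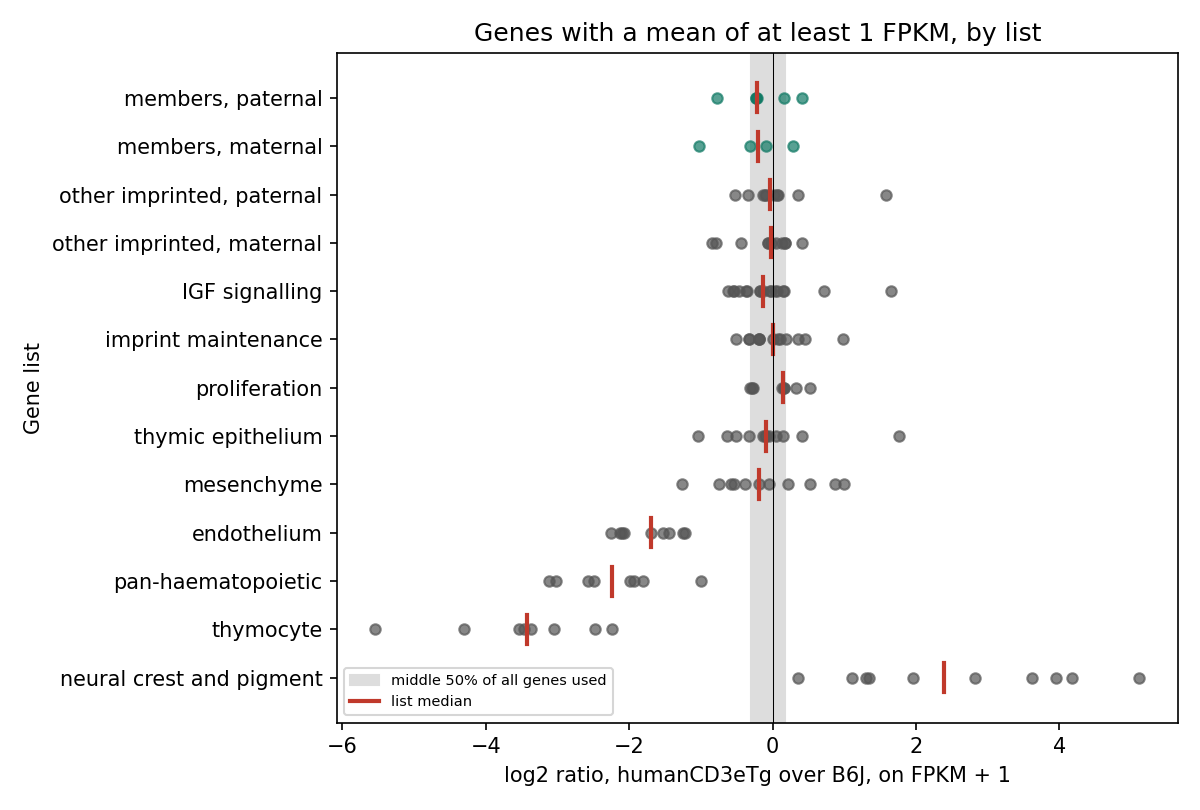
Log2 ratio of humanCD3eTg over B6J on FPKM + 1 for each gene that averaged 1 FPKM or more (points), by list, with the list median as a red line and the middle 50% of all genes used, from -0.30 to 0.18, in grey. The paternally and maternally expressed genes have medians of -0.22 and -0.20 inside the grey band, with H19 at -1.02 and Mest at -0.77 furthest outside it, whereas endothelial, pan-haematopoietic and thymocyte markers lie below it and neural crest and pigment markers above it.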

How the data were processed

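Libraries were made from total RNA of sorted cells with an Illumina kit, per the labels. The authors deposited FPKM, 1 value for each gene symbol in a table for each library. The submitters' processing notes name TopHat2 2.0.8, Bowtie2 2.1.0, Cufflinks 2.1.1 and mm9 but no roles; annotation, filters and use of strand are not stated. Depth was estimated from the steps in low FPKM values of genes with 1 GENCODE transcript (length less 210 bases), searched between 0.04 and 0.09 FPKM over 1 kb because wider searches settled on smaller steps. This gave about 15700000 fragments for humanCD3eTg, using the modal ratio of 1.26 between the libraries' low values, and 19900000 for B6J. At the best step found, 57.0% of the values in humanCD3eTg and 58.9% in B6J lay within 0.1 of a whole number of fragments. A step fixed in advance would give 20% by chance, but these steps were fitted to the same values, so the shares are not a test. For humanCD3eTg the share belongs to a fitted step of 0.0639 FPKM, and the depth used came from 0.0636 FPKM. The depth is thus rough, and a count model was not used.

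Log2 ratios on FPKM + 1 were computed with python 3.11.15 and pandas 2.3.3 over genes averaging 1 FPKM or more, a filter that a gene can pass through either library alone, and checked on simulated data; intervals used scipy 1.17.1 at a level of 95%. A gene at 0.001 FPKM or less is said to be listed at 0, which can be a failed estimate. All 10 members were named. From other lists, genes were named by the highest mean level or the largest ratio, and markers freely; Mirg, Igf1r, Snrpn and rows overlapping members were picked for their place in the pathway or locus. Members and lists were chosen with earlier results of these data known. Sequences are from RefSeq tables of GRCm38.p6, a later build than mm9.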

Additional observations from a re-analysis of the deposited data

How the results depend on the processing

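No paired analysis was possible because each group has 1 library and no test was run. Over the 7 alternatives tried for each of the 10 genes (8 for H19), every log2 ratio kept its sign. Alternatives that change only the pseudocount cannot alter the sign of a gene, so they say nothing on this point. Median centring and the rescalings moved every gene by nearly the same small amount, under the size of the smallest ratio, -0.09 for Igf2r. They could not alter a sign here either, which leaves quantile normalization and, for H19, the sum with the Mir675 row. The range was -0.83 to -0.71 for Mest, -0.13 to -0.01 for Igf2r and 0.35 to 0.47 for Plagl1. The lower ends for Mest and Igf2r came from rescaling without small RNA rows, which was not among the planned settings. H19 ranged from -1.31 to -0.98, with -0.98 under median centring, -1.12 under quantile normalization and -1.31 with the Mir675 row added, a setting chosen after seeing the data. The count of maternally expressed genes 2-fold lower was 0 under median centring and at a 4-fold limit, and at a 1.5-fold limit 1 paternally expressed gene was lower. Over all genes, 223 were lower and 106 higher with a pseudocount of 5, 272 and 143 among genes averaging 5 FPKM or more, 1471 and 803 at 1.5-fold and 171 and 66 at 4-fold, against 603 and 284. Counts of genes higher were 473 with a pseudocount of 0.1 and 454 with none.

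The mesenchymal marker median, -0.18, turned to 0.08 among genes averaging 5 FPKM or more. Small medians of other lists also changed sign under some settings, to 0.07 with no filter, 0.01 under median centring and 0.04 under quantile normalization for other paternally expressed genes, to 0.02 and 0.03 under the last 2 of these for other maternally expressed genes, to 0.07 among genes averaging 5 FPKM or more for proteins binding Igf2 mRNA, and to -0.19 with no filter and -0.03 rescaled without haemoglobin, mitochondrial and ribosomal protein genes for imprint maintenance. The medians that follow moved in size and kept their sign. With pseudocounts of 0.1, 5 and none, endothelial medians were -2.63, -0.81 and -2.71, thymocyte medians -5.36, -1.73 and -5.14, pan-haematopoietic medians -3.43, -1.09 and -3.55, and neural crest and pigment medians 4.19, 1.19 and 3.90. The last was 3.79 among genes averaging 5 FPKM or more. Counting intervals over 1 kilobase held 0 for Peg3 and Igf2r and those over the longest annotated transcript did not, so this depends on the length assumed, a setting chosen after seeing the data. The approximate depth carries into all intervals.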

Other observations

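Of 425 rows for microRNA genes, 17 were above 0 in both libraries and 385 in neither. Mir675 was the 2nd highest of them in humanCD3eTg and the highest in B6J. Dio3, a paternally expressed deiodinase gene at the far end of the Dlk1 and Meg3 domain, stood at 1.52 FPKM in humanCD3eTg and at 0.360 FPKM in B6J, and averaged less than 1 FPKM. Rtl1 of the same domain stood at 0.298 FPKM in humanCD3eTg and at 0.141 FPKM in B6J. Both were picked after their values were seen.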
